A study of Mus musculus with 18 samples.

Results

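Innate microbial sensors of the crypt epithelium were followed through cells sorted at 3 levels of Lgr5 from the small intestine (SI) and the large intestine (LI). The group comprised 10 of the 43346 genes in the count table, taken by symbol: the Toll-like receptors Tlr2, Tlr3, Tlr4, Tlr5 and Tlr9, the cytosolic receptors Nod1, Nod2 and Nlrp6, the adaptor Myd88 and the antibody transporter Pigr. In the SI, Nlrp6 and Nod1 were 1.81- and 2.8-fold lower in row >3 cells than in the crypt centre, and Pigr was 1.51-fold higher; the LI means were ordered the same way, with 0 members called in the LI by the same test (0.0187% of all genes were) and these 3 called once a block for the replicate number was added (2.59% of all genes). Tlr4 was lower in SI than in LI cells in the border and in row >3. Tlr5 and Nod2 were lower in the SI in replicate numbers 1 and 2, but Tlr5 of number 3 was within the LI range in centre and border cells and above it in row >3.

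Toll-like receptors bind microbial products at the cell surface (Tlr2 for lipoproteins, Tlr4 for lipopolysaccharide, Tlr5 for flagellin) or in endosomes (Tlr3 for double-stranded RNA, Tlr9 for unmethylated CpG DNA), and all of them except Tlr3 signal through the adaptor Myd88 to the transcription factor NF-kB. Nod1 and Nod2 sense fragments of bacterial peptidoglycan in the cytosol, and Nlrp6 is an intracellular receptor of the epithelium linked to inflammasome assembly and to mucus secretion by goblet cells. Pigr, the polymeric immunoglobulin receptor, carries IgA across the epithelium into the lumen. Because the gut epithelium faces dense bacteria, which receptors it expresses, and where along the crypt, is a recurring question.

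All 18 libraries came from untreated C57BL/6 mice of genotype Lgr5_eGFP_Iris_creERT2, in which GFP and an inducible Cre are expressed from the Lgr5 locus, aged 8 to 20 weeks according to the sample labels. EPCAM+ cells were sorted for high, medium or low GFP, which the study equates with the crypt centre, the border and the rows beyond the border (row >3), so there were 6 groups of 3 replicates. Every group carried the same alleles and no group was treated. The labels do not say which mouse each library came from, nor which SI segment was used, so p-values measure the spread between these libraries. GFP from this allele is known to be patchy, and a sorted gate can hold several cell types; fewer cells of a type and less RNA per cell cannot be told apart in such bulk samples.

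Library totals ran from 8312093 to 31940965 reads on genes. Lgr5 itself stepped down with the gates, from 2434 to 5252 normalised counts in SI centre to 28.1 to 279.6 in SI row >3 cells, and from 2176 to 2575 to 134 to 466 in the LI; a normalised count is the read count divided by 1 size factor per library. The 6 epithelial markers summed to between 63364 and 166897 in every library, and their sum moved with the level. It was 63364 to 86695 in SI centre and 142729 to 166897 in SI row >3 cells. In the LI it was 82647 to 88266 and 103175 to 122914. Of the 6, 5 in the SI and 4 in the LI were higher in every row >3 than in every centre library. The share of all genes that separate in this way is not given, here or for the lists below. Such counts therefore describe the markers only. The 3 SI libraries of replicate number 3 stood apart: Car1, an absorptive gene typical of the LI, was at 1668, 22796 and 38981 in their centre, border and row >3 cells, against 0 to 215 in the other 6 SI libraries and 2498 to 26487 in the LI. Their Paneth markers, of which 6 of 7 were in the table, summed to 38619, 11110 and 4324 in centre, border and row >3 cells. Numbers 1 and 2 had 34823 and 161603 in the centre, 73114 and 124832 in the border, and 65545 and 95014 in row >3. Number 3 was thus lowest in border and row >3 cells but not in the centre. LI libraries had at most 245. The 6 stem markers of number 3 had the lowest sum of the 3 SI libraries at each level. Counts of calls and members' changes that rest on these libraries are given with and without them. Summed markers of other cell types also differed between levels, not always alike in the 2 sites. The summed level of the 7 goblet markers was between 15556 and 216217 in SI centre and between 653573 and 1063781 in SI row >3 cells, and between 144873 and 236076 and between 313441 and 503744 in the LI. Muc2 and Fcgbp made up most of that sum; 6 of the 7 in the SI and 5 of the 7 in the LI were higher in every row >3 than in every centre library, and Clca1 was lower in both sites. The sum of the 9 absorptive markers was between 1443 and 6851 in SI centre and between 14061 and 65549 in SI row >3 cells, and between 7248 and 9997 and between 21261 and 34623 in the LI, with 5 of 9 in the SI and 4 of 9 in the LI higher in every row >3 library and 2 of 9 (Fabp1 and Car4) lower in the LI. The sum of the 6 tuft markers was 512, 606 and 8245 in the SI centre, 18580, 5726 and 8449 in the border and 7002, 7513 and 1780 in row >3, while LI libraries had 2356 to 6312. The sum of the 7 enteroendocrine markers was 893, 5776 and 58.8 in the SI centre. It was 7742, 11745 and 769.6 in SI row >3 cells, higher in each number. In the LI it was 2893, 4060 and 4773 in the centre and 1082, 3772 and 4677 in row >3, lower in each number. Across the LI libraries it ran from 557 to 4773. Of these 7 markers, 0 were higher, and 0 lower, in every row >3 than in every centre library, in either site. The part of these cell types in the changes between levels was not tested.

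The members lie on 7 chromosomes of GRCm38. Tlr2 is at chr3:83836272-83841767, Tlr4 at chr4:66827584-66930284, Tlr5 at chr1:182954788-182976044, Tlr3 at chr8:45395665-45411080 and Tlr9 at chr9:106222598-106226883. Nod1 occupies chr6:54923949-54972612, Nod2 chr8:88647315-88688474, Nlrp6 chr7:140920902-140929192, Myd88 chr9:119335934-119341411 and Pigr chr1:130826684-130852249. Counts are over exons of the whole gene. Myd88 overlaps Acaa1a on the opposite strand, which averaged 974 normalised counts against 406 for Myd88, and the sources used here do not give the strand used for counting, so reads of both genes may not be separated and the Myd88 values are uncertain.

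Levels differed widely between the members. Per kilobase of exon, Pigr averaged 17159 normalised counts over the 18 libraries and Nlrp6 1134. Myd88 followed at 158, Nod1 at 113 and Tlr3 at 61.8. The least abundant were Tlr5 at 30.8, Nod2 at 27.7, Tlr2 at 22 and Tlr4 at 8.07 per kilobase. Pigr exceeded Nlrp6, and Nlrp6 exceeded Myd88, in all 18 libraries, and Tlr4 was below Tlr2 in 17 of 18. Neighbours in the middle of the order changed places from library to library: Myd88 was above Nod1 in 13, Tlr5 above Nod2 in 11 and Nod2 above Tlr2 in 9 of 18. Tlr9 had 2 reads in all, 1 in an SI row >3 and 1 in an LI border library, and the 0 reads in the other 16 allow at most 3 reads, which are between 2.05 and 7.08 normalised counts depending on the library. No level or fold change is given for Tlr9, although the test includes it.

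**Figure D1:**
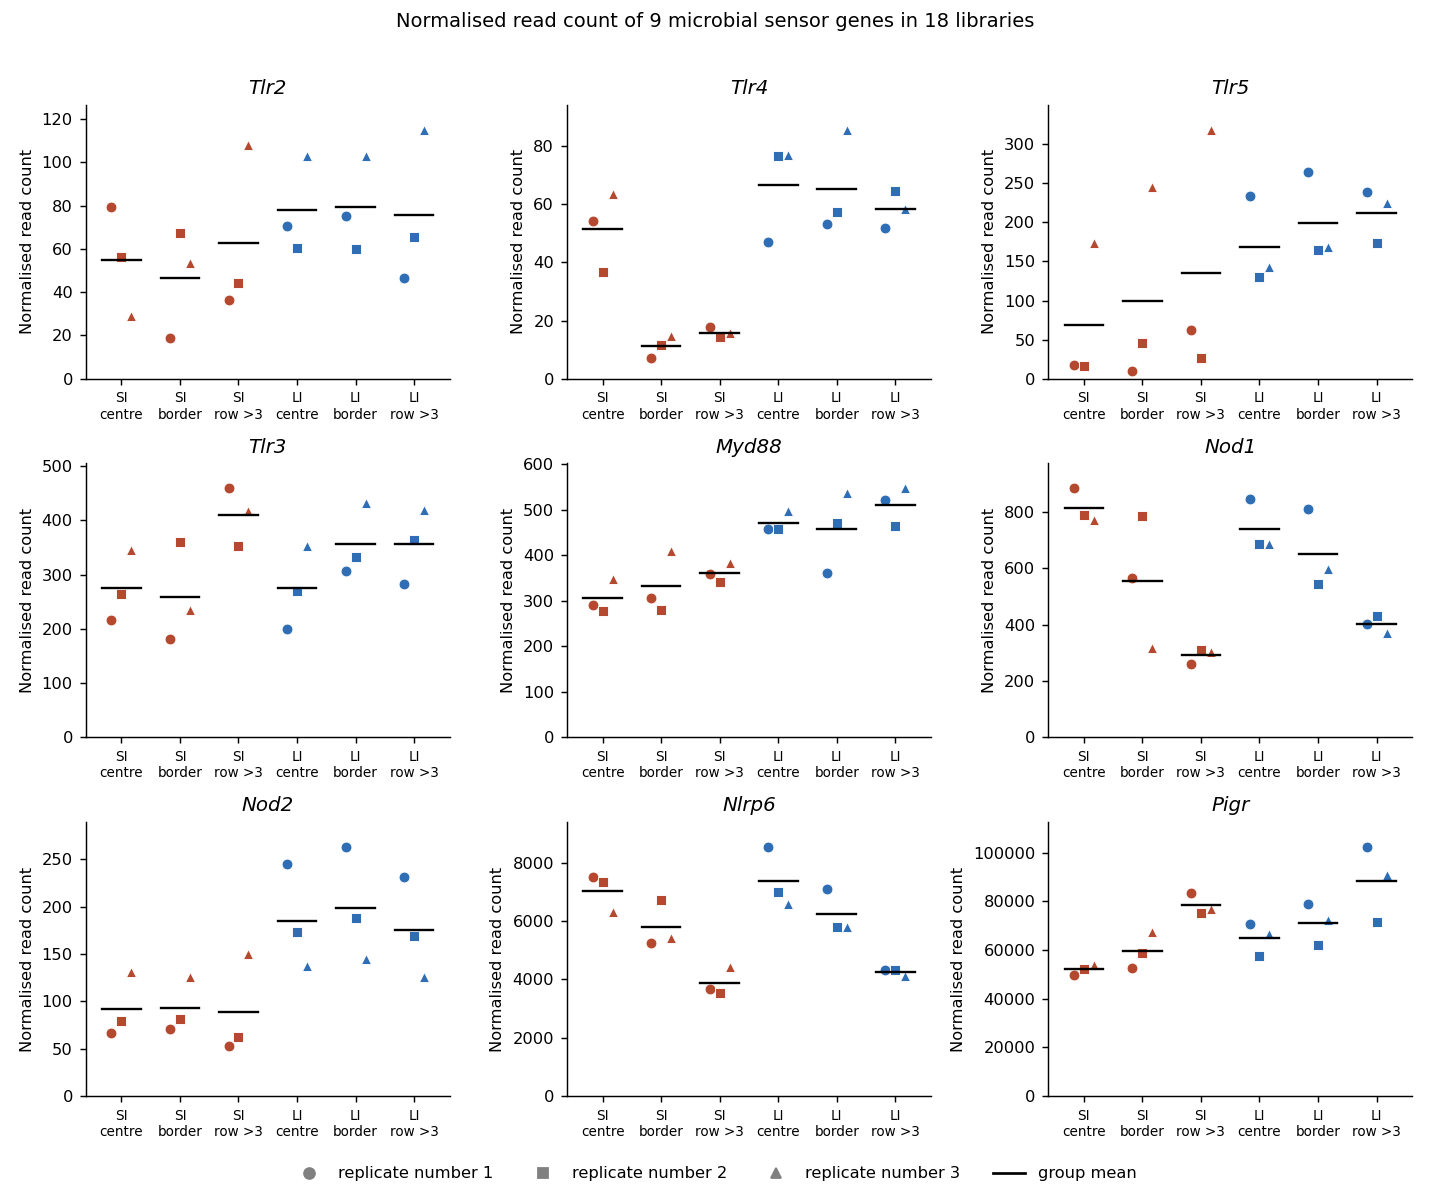
Each panel plots the normalised read count (y axis, linear from 0) of 1 gene in the 18 libraries, by site and Lgr5 level (x axis), with the symbol giving the replicate number and a bar at the mean of 3. Nlrp6 and Nod1 step down and Pigr steps up from centre to row >3 in both sites, Tlr4 is near the bottom of its axis in SI border and row >3 cells, and the 3 highest SI values of Tlr5 (173, 245 and 318) all belong to replicate number 3.

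Which sensors change as cells leave the crypt centre was examined by comparing row >3 with centre cells within each site. In the SI, 4 of the 10 members passed edgeR's quasi-likelihood test (Nlrp6, Nod1 and Tlr4 lower, Pigr higher; called here means a Benjamini-Hochberg adjusted p below 0.05), where 13.2% of the 26717 genes tested were called. With a block for the replicate number the SI count was 6, with Tlr3 and Tlr5 added (22.8% of genes). Without the 3 SI libraries of number 3 it was 3, with Tlr4 lost (17.1%). It was also 3 with library size only (12.5%) and with only the groups compared (10.7%). In the LI, 0 of 10 were called, where 0.0187% of genes were called; with a block for the replicate number, whose libraries deviated together within a site, 3 of 10 were (Nlrp6, Nod1 and Pigr), where 2.59% of genes were called. At an unadjusted p under 0.05 the LI count was 3 (Nlrp6, Nod1 and Pigr), where 6.96% of genes had such a p, and DESeq2 called 1, Nlrp6, and 0.307% of genes. Low genes are included in those percentages, and members with few reads had little room to be called. The SI count was 4 with filterByExpr, which drops low genes, where 25.8% of 15998 genes were called.

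Nlrp6 was the second most abundant member. In SI centre cells its 3 libraries had 7512, 7330 and 6300 normalised counts (7047 ± 654, SD, n = 3), in border cells 5237, 6706 and 5411 (5785 ± 803) and in row >3 cells 3673, 3518 and 4432 (3875 ± 489). All row >3 libraries lay below all border and all centre libraries. Row >3 cells had 1.81-fold less Nlrp6 than centre cells (log2 fold change -0.86, SE 0.14, adjusted p = 0.000418), called under all 14 alternatives (adjusted p between 1.3e-06 and 0.00929). Each of the 3 replicate numbers fell, to 48.9, 48.0 and 70.4% of its own centre library. Row >3 was also below border (-0.57, adjusted p = 0.0485), but that call held in 7 of 14 alternatives only, with adjusted p between 0.00428 and 0.281. The step from centre to border (-0.29, SE 0.14, adjusted p = 0.565) was not called.

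The LI gave nearly the same values of Nlrp6, with 8544, 7000 and 6588 in the centre (7377 ± 1031), 7110, 5803 and 5797 in the border (6237 ± 757) and 4327, 4303 and 4129 in row >3 (4253 ± 108). Again no row >3 library reached a border or centre library. The log2 fold change of row >3 over centre was -0.79 (SE 0.14), with an adjusted p of 0.0686 in edgeR, so it was not called. With a block for the replicate number the adjusted p was 0.00133, and with DESeq2 it was 0.000785. The SI minus LI difference of this change was -0.07 on the log2 scale (95% interval -0.49 to 0.35), so a larger fall in either site was not detected.

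Nod1, the receptor for meso-diaminopimelic acid peptides of peptidoglycan, ran alongside Nlrp6. It had 883, 789 and 772 normalised counts in SI centre cells (815 ± 59.8), 564, 785 and 317 in border cells (555 ± 235) and 259, 309.6 and 303 in row >3 cells (290.3 ± 27.7). The border libraries spanned nearly the whole range, with number 2 at the centre level and number 3 at the row >3 level. Row >3 cells held 2.8-fold less Nod1 than centre cells (log2 fold change -1.49, SE 0.24, adjusted p = 0.000264), called under all 14 alternatives with adjusted p between 6.13e-07 and 0.00416. Row >3 against border gave -0.92 (adjusted p = 0.0526) and, with the replicate block, -0.91 (adjusted p = 0.0099). It was called in 5 of 14 alternatives, among them without all 3 SI libraries of number 3 (-1.23, adjusted p = 0.00142), and not in the others, where the log2 fold change came to -0.56 and the adjusted p to 0.373 at most.

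In the LI, Nod1 had 846, 687 and 687 normalised counts in the centre (739.8 ± 91.7), 809, 543 and 596 in the border (649 ± 141) and 402, 432 and 369 in row >3 (401 ± 31.6). The row >3 libraries were again the 3 lowest. Row >3 over centre was -0.87 on the log2 scale (SE 0.23, adjusted p = 0.315), not called, but called with the replicate block (adjusted p = 0.0196). The change in the SI minus that in the LI was -0.61 (SE 0.33, 95% interval -1.30 to 0.07, unadjusted p = 0.0761 in edgeR), so the steeper SI fall was within the error.

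Pigr was the most abundant member by far. It stood at 49946, 52189 and 53888 normalised counts in SI centre (52008 ± 1977), 52739, 58792 and 67409 in SI border (59647 ± 7372) and 83304, 75390 and 76710 in SI row >3 cells (78468 ± 4240). Row >3 lay above border and centre in every library, and all 3 numbers rose, by 1.67-, 1.44- and 1.42-fold. The log2 fold change of row >3 over centre was 0.60 (SE 0.13, adjusted p = 0.00401), called in 13 of 14 alternatives; scaled by library size alone it was 0.40 (adjusted p = 0.0922). Against border, Pigr was 0.40 higher (adjusted p = 0.131), or 0.41 with the replicate block (adjusted p = 0.0033) and 0.54 without SI number 3 (adjusted p = 0.0231).

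In the LI, Pigr counts were 70590, 57368 and 66480 in the centre (64813 ± 6767), 79007, 61903 and 72550 in the border (71154 ± 8637) and 102445, 71596 and 90865 in row >3 (88302 ± 15584). Number 2 was lowest at each level, and in every number the count was higher in border than in centre and higher again in row >3, which was at 145, 125 and 137% of the centre. The log2 fold change of row >3 over centre was 0.45 (SE 0.13, adjusted p = 0.435), and with the replicate block 0.44 (adjusted p = 0.00703). The SI minus LI difference of the change was 0.15 (95% interval -0.24 to 0.54), which is within the error.

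Tlr4, the lipopolysaccharide receptor, changed with position in the SI. It was at 54.3, 36.8 and 63.4 normalised counts in SI centre cells (51.5 ± 13.5), 7.08, 11.7 and 14.7 in border (11.2 ± 3.85) and 17.8, 14.2 and 15.6 in row >3 cells (15.9 ± 1.80). No SI border or row >3 library reached the lowest centre library. These are low counts, between 3 and 115 reads per library in all 18. Row >3 cells had 3.21-fold less than centre cells (log2 fold change -1.68, SE 0.44, adjusted p = 0.0115), called in 12 of 14 alternatives, but not without SI number 3 (-1.50, adjusted p = 0.0532) nor with only the groups compared (adjusted p = 0.051). The border was lower than the centre by a similar amount (-2.09, SE 0.50), not called in edgeR (adjusted p = 0.166) but called with the replicate block (adjusted p = 0.0306) and DESeq2 (0.00298).

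LI cells kept Tlr4 at all levels, with 47, 76.5 and 76.9 normalised counts in the centre (66.8 ± 17.1), 53.2, 57.4 and 85.6 in the border (65.4 ± 17.6) and 51.9, 64.5 and 58.5 in row >3 (58.3 ± 6.31). The 3 LI levels overlapped. The SI minus LI difference was -2.06 for border over centre (SE 0.62, unadjusted p = 0.00328, adjusted p = 1 in edgeR) and -1.47 for row >3 over centre (SE 0.57, unadjusted p = 0.0162, adjusted p = 0.547), so neither passed across all genes. For these differences between sites 0 of 10 members were called, where 0% of genes were called in either contrast; 1 member, Tlr4, had an unadjusted p under 0.05 in each, as did 2.65 and 6.74% of genes, and DESeq2 called 0 members and 0.00749 and 0.565% of genes. Tlr4 is also made by immune cells, of which 14 of 15 markers were in the table: their summed level was 494 to 774 in SI centre, 853 to 1355 in SI border, 838 to 1679 in SI row >3 and 586 to 1076 in LI cells. Between 8 and 12 of the 14 had counts in a group. Cd3e, Cd8a, Lyz2, Csf1r and Cx3cr1 were at 9.44 or less in every library. Ptprc, the pan-leukocyte gene, was at 44.6, 21.2 and 256 in SI centre, 555, 203 and 389 in SI border, 199, 171 and 39 in SI row >3 and 43.7 to 277 in LI cells, and Cd68 at 14.1 to 144 in the 18 libraries. Itgam made up most of the sum in SI row >3 libraries 1 and 2 (1393 of 1679 and 1199 of 1478), and C1qa was at 330.2 to 898 in the LI libraries, 302 to 618 in SI number 3 and 0 to 2.37 in SI numbers 1 and 2. The cells had been sorted as EPCAM+, and the part of immune cells in the Tlr4 values was not tested.

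**Figure D2:**
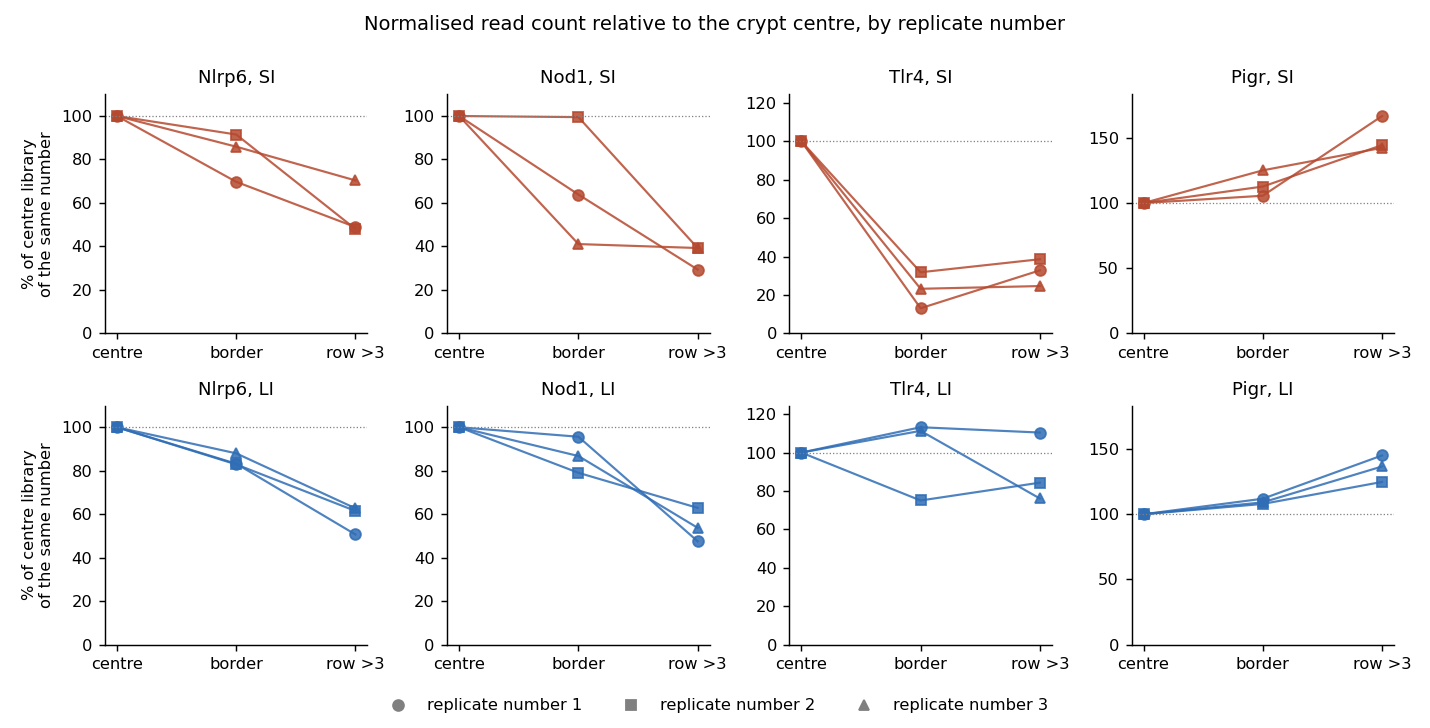
For Nlrp6, Nod1, Tlr4 and Pigr, each line follows 1 replicate number across the Lgr5 levels (x axis) in the SI (top) or LI (bottom), as a percentage of the normalised count in its own centre library (y axis). Nlrp6 and Nod1 end below 71% in every line, Pigr ends at 125% or more, and Tlr4 drops to between 13 and 31.7% in SI border cells while the LI lines stay between 75.0 and 113%.

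The remaining members showed no call between levels. Tlr3 had 216, 264 and 345 normalised counts in SI centre, 182, 360.3 and 235 in SI border and 459, 353 and 418 in SI row >3 cells. The row >3 libraries lay above the centre libraries, by 2.12-, 1.34- and 1.21-fold within the numbers, and the log2 fold change was 0.58 (SE 0.27, adjusted p = 0.20); with the replicate block it was 0.61 (adjusted p = 0.0392). In LI cells Tlr3 was at 200.0, 270.4 and 353 in the centre and 283, 364 and 419.7 in row >3, overlapping, though row >3 was the higher in each number (log2 fold change 0.37, SE 0.27, adjusted p = 0.921).

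Tlr5 was higher in SI row >3 than in SI centre cells in each of the 3 numbers, but its spread between numbers exceeded that between levels. The log2 fold change of SI row >3 over centre was 0.88 (SE 1.05, adjusted p = 0.731); it was 1.07 with the replicate block (adjusted p = 0.0212), and it turned to -0.58 when row >3 number 3 was left out. Tlr2 ranged from 18.9 to 108 in the SI and from 46.5 to 115 in the LI, Nod2 from 52.7 to 149.9 and from 126 to 263, and Myd88 from 277 to 410.3 and from 362 to 547. In each of these 3 genes the levels of a site overlapped.

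**Figure D3:**
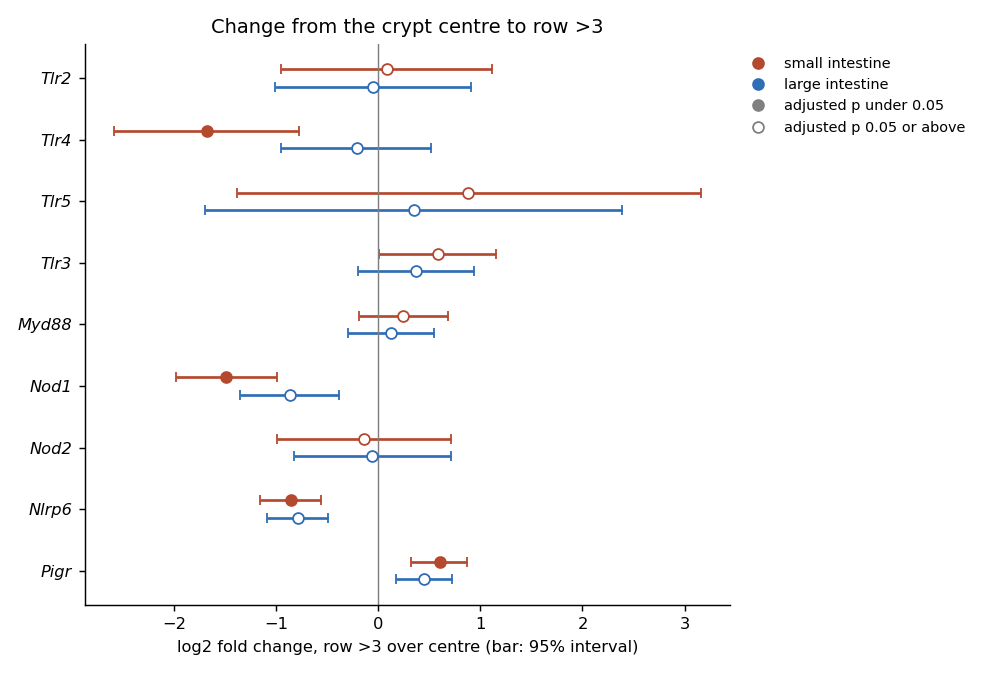
Log2 fold change of row >3 over centre cells (x axis) for 9 members in the SI and in the LI, with bars for the 95% interval and filled symbols for an adjusted p under 0.05. The intervals of Nlrp6, Nod1 and Pigr exclude 0 in both sites, the filled symbols are all in the SI, and the intervals of Tlr5 are the widest.

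The smaller steps had few calls. SI border against centre gave 0 of 10 members, where 0.0112% of genes were called; 2 members (Tlr4 and Nod1) and 8.98% of genes had an unadjusted p under 0.05, and DESeq2 called 1 member and 0.782% of genes. SI row >3 against border gave 1 of 10, Nlrp6, where 1.61% of genes were called. LI border against centre gave 0 of 10, where 0% of genes were called, with 0 at an unadjusted p under 0.05 (1.38% of genes) and 0 in DESeq2 (0% of genes). LI row >3 against border also gave 0 of 10, where 0% of genes were called, with 3 at an unadjusted p under 0.05 (Nod1, Nlrp6 and Pigr; 3.72% of genes) and 0 in DESeq2 (0% of genes).

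Promoter windows are shown for Nlrp6, Nod1 and Pigr, which were called between SI row >3 and centre cells, and in the LI under some alternatives only. RefSeq start sites on GRCm38.p6 were found for 9 of the 10 members, Tlr4 being the one without an entry, and each window holds 250 bases before the start and 50 from it, 5′ to 3′ on the gene's own strand. They were searched on both strands for 7 motifs: the basal promoter box TATAAA, the TCF/LEF motif CTTTGAT, the HNF4 motif CAAAGTCCA, the NF-kB motif GGANNTTCC, the IRF motif GAAANNGAA, the E-box CACGTG and the CDX motif TTTATG, which occur in 13.6, 3.73, 0.475, 4.26, 8.56, 7.15 and 11.9% of all 32851 promoter windows. Capitals mark the matches. Nlrp6 (chr7:140920652-140920951, plus strand) and the first Nod1 start (chr6:54972563-54972862, minus strand) held none of the 7. The second Nod1 start (chr6:54971612-54971911, minus strand) held the NF-kB letters 231 and 188 bases before the start and the CDX letters 31 before it, and Pigr (chr1:130826434-130826733, plus strand) held the E-box 71 before its start.
Nlrp6 promoter: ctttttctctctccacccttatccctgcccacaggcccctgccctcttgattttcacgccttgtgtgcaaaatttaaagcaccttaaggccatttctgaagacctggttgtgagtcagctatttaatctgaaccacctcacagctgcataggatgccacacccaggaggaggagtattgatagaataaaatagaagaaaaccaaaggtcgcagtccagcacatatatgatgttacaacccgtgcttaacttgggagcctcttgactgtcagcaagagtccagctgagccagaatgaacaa
Nod1 promoter, first start: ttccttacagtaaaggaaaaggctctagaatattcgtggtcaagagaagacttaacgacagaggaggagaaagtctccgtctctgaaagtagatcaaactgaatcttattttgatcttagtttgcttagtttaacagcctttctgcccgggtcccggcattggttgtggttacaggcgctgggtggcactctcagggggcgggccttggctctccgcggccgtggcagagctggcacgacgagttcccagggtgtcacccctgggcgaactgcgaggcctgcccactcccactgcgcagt
Nod1 promoter, second start: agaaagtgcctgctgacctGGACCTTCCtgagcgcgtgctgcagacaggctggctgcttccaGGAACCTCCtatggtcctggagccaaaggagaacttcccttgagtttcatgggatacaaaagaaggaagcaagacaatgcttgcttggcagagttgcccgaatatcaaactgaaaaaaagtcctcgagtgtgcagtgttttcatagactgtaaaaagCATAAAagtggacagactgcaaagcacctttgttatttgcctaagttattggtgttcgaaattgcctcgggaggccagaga
Pigr promoter: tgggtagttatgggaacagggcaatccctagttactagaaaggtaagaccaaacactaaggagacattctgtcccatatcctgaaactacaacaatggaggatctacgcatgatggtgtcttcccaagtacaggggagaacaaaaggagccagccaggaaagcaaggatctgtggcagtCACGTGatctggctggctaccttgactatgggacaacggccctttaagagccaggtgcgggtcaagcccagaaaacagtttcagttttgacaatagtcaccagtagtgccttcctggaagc

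How the sites differ was examined at each Lgr5 level. SI against LI gave 0 of 10 members in the centre, where 1.99% of genes were called, with 3 at an unadjusted p under 0.05 (Nod2, Myd88 and Pigr; 14.5% of genes) and 1 in DESeq2 (Myd88; 4.60% of genes). In the border 1 of 10 was called, where 1.75% of genes were called, and in row >3 1 of 10, where 4.09% were called; Tlr4 was the member both times. With reads of the 3 levels summed per site and replicate number (3 against 3), 0 of 10 were called, where 2.95% of genes were called, with 4 at an unadjusted p under 0.05 (Tlr4, Nod2, Myd88 and Pigr; 18.1% of genes) and 3 in DESeq2 (8.31% of genes). Without the 3 SI libraries of number 3, the counts became 3 in the centre, 3 in the border, 3 in row >3 and 4 over the sums, and each of these members was lower in the SI. The share of all genes called rose too, to 10.9, 8.10, 12.2 and 11.8%.

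Tlr4 was 2.51 lower on the log2 scale in SI than in LI border cells (log2 fold change -2.51, adjusted p = 0.00855), which is the difference between the 11.2 and 65.4 normalised counts given above. The call was lost with only the groups compared (adjusted p = 0.0672) and without LI border number 3 (adjusted p = 0.0695). In row >3 cells the log2 fold change was -1.93 (adjusted p = 0.0102), and it was not called without SI number 1, SI number 2 or LI number 2, with adjusted p of at most 0.0656. SI and LI libraries did not overlap at either level. In the centre they did, and the log2 fold change was -0.45 (adjusted p = 0.641). Over the sums it was -1.25 (adjusted p = 0.0752), and -1.38 without SI number 3 (adjusted p = 0.0263).

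Tlr5, the flagellin receptor, split the SI by replicate number. SI centre cells had 17, 16.6 and 173 normalised counts, SI border cells 9.44, 45.4 and 245 and SI row >3 cells 62.2, 26.9 and 318. LI cells had 234, 129.7 and 143 in the centre, 264, 165 and 168 in the border and 238, 174 and 225 in row >3. Number 3 of the SI was at 102, 123 and 150.0% of the LI mean of its level, whereas numbers 1 and 2 were between 4.75 and 29.3% of it. With all libraries the log2 fold changes of SI over LI were -1.35, -0.89 and -0.81 (adjusted p = 0.631, 0.834 and 0.818). Without the 3 SI libraries of number 3 they were -3.30, -2.67 and -2.22 (adjusted p = 4.06e-05, 0.000874 and 0.000212), that is 9.88-, 6.37- and 4.67-fold lower in the SI. The SI libraries in which Tlr5 was within or above the LI range were thus the ones with 1668 to 38981 normalised counts of Car1. The part of their cell content in this was not tested. Since the labels do not give the SI segment, another segment and an admixture of LI cells cannot be told apart in these libraries.

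Nod2, the muramyl dipeptide receptor, showed a smaller form of the same split. It had 66.4, 79.2 and 131 normalised counts in SI centre, 70.8, 81.7 and 126 in SI border and 52.7, 62.4 and 149.9 in SI row >3 cells. In the LI the counts were 245, 173 and 137 in the centre, 263, 188 and 145 in the border and 231, 169 and 126 in row >3. Number 3 was the highest of the SI and the lowest of the LI at each level, and only in row >3 did the sites overlap. The log2 fold changes were -1.05, -1.10 and -1.13 (adjusted p = 0.181, 0.193 and 0.129), and without SI number 3 they were -1.34, -1.39 and -1.62 (adjusted p = 0.011, 0.026 and 0.00213). Over the sums the change was -1.13 (adjusted p = 0.103), or -1.54 without SI number 3 (adjusted p = 0.00726). Nod2 is known from Paneth and stem cells of the SI crypt. The Paneth markers summed to 4324 or more in the SI and at most 245 in the LI, and their part in the Nod2 values was not tested.

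Myd88, which relays most Toll-like receptor signals, had 291, 277 and 348 normalised counts in SI centre (305 ± 37.5) and 458, 457 and 497 in LI centre cells (471 ± 23.1). All SI centre libraries lay below all LI centre libraries. The log2 fold change was -0.68, not called in edgeR (adjusted p = 0.0944) but called by DESeq2 (-0.62, adjusted p = 0.0241) and without SI number 3 (-0.75, adjusted p = 0.0176). In border cells the SI had 307, 279 and 410.3 and the LI 362, 472 and 537, and in row >3 cells 359.7, 342 and 382 against 522, 465 and 547. Over the sums the change was -0.59 (adjusted p = 0.0966), and -0.68 without SI number 3 (adjusted p = 0.0228). Since reads of Acaa1a may enter these counts, the size of the Myd88 difference is uncertain.

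Nlrp6, Nod1, Pigr, Tlr2 and Tlr3 were not called between the sites in edgeR with all libraries or with SI number 3 left out. Pigr lay lower in every SI than in every LI centre library, at 0.802 times the LI mean (log2 fold change -0.37, unadjusted p = 0.0104, adjusted p = 0.164 in edgeR), and overlapped in border and row >3 cells. Nod1 lay lower in every SI than in every LI row >3 library, at 0.724 times the LI mean (-0.53, unadjusted p = 0.037, adjusted p = 0.271 in edgeR), and overlapped in centre and border cells. Nlrp6 in SI was at 0.955, 0.928 and 0.911 times its LI mean in centre, border and row >3 cells, with overlapping libraries. Tlr2, the lipoprotein receptor, was at 79.4, 56.2 and 28.9 in SI centre against 70.6, 60.5 and 103 in LI centre cells, and overlapped at each level.

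**Figure D4:**
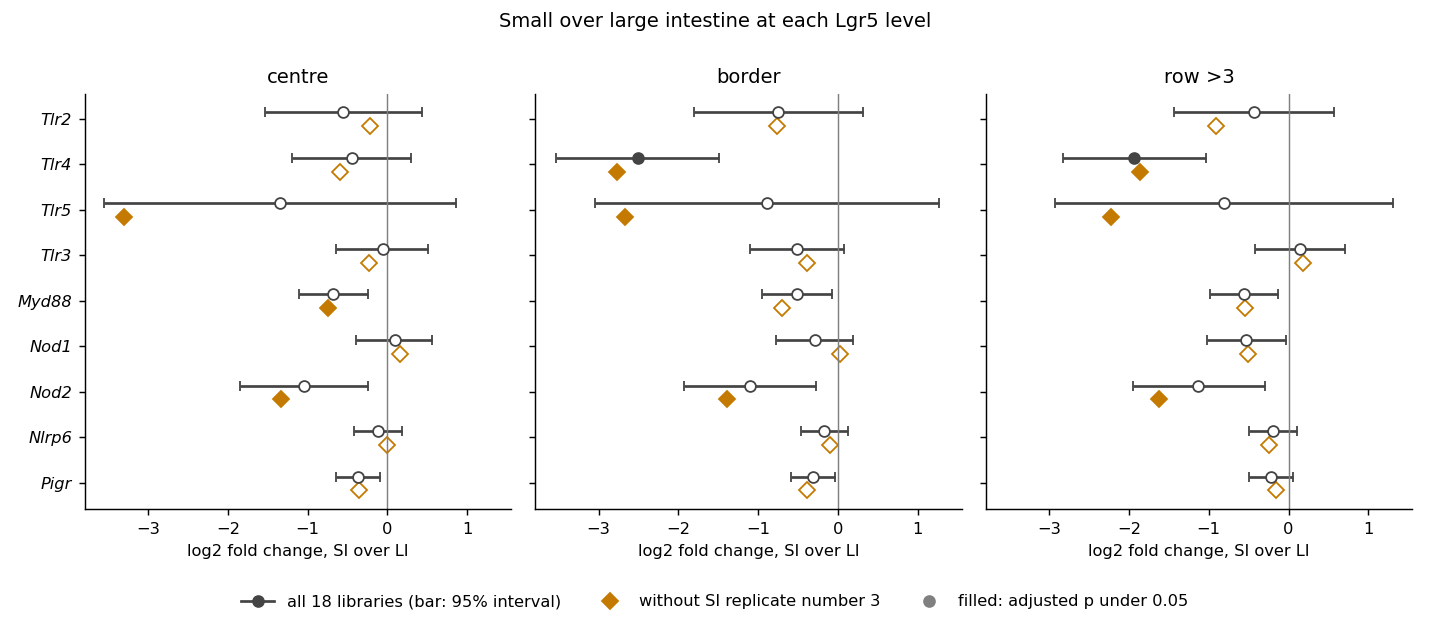
Log2 fold change of SI over LI (x axis) for 9 members in centre, border and row >3 cells, with all 18 libraries (circles, bars for the 95% interval) and without the 3 SI libraries of replicate number 3 (diamonds, drawn without intervals); filled symbols have an adjusted p under 0.05. With all libraries only Tlr4 is filled, in border and row >3 cells, and without number 3 Tlr4 stays filled in border and row >3 cells, Tlr5 and Nod2 are filled at each level and Myd88 in the centre.

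The promoter windows of Tlr5 and Nod2, which were lower together in SI numbers 1 and 2, lie at chr1:182954538-182954837 and chr8:88647097-88647396, both on the plus strand. Neither held any of the 7 motifs, so no letter is in capitals.
Tlr5 promoter: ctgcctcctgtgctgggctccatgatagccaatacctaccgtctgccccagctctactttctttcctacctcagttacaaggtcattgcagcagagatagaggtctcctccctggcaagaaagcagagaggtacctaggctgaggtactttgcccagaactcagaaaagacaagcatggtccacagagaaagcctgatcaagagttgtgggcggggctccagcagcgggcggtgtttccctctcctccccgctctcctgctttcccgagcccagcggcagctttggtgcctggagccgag
Nod2 promoter: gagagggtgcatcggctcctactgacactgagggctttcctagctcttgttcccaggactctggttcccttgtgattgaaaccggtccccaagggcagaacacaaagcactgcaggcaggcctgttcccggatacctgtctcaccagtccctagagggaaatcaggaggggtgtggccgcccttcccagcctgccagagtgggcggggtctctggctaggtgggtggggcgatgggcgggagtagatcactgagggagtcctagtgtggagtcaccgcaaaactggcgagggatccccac

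Other genes of the sensing pathways were taken from 9 lists by role, 97 genes in all, of which 93 were tested. In SI row >3 over centre cells 25 of the 93 rose and 2 fell, where 7.35% of all genes rose and 5.82% fell, with a median log2 fold change of 0.46 against 0.00 over all genes tested. The count depended on single libraries: 12 rose and 0 fell without row >3 number 1 (7.45% of genes called), and 16 and 0 without centre number 1 or number 2 (8.02 and 8.72%). With only the groups compared 16 rose and 0 fell (10.7%), and scaled by library size alone 14 and 2 (12.5%). With the replicate block 41 rose and 4 fell (22.8%), and without SI number 3 29 and 1 of 92 (17.1%). Genes with few reads are part of the shares of all genes and of the median of 0.00. With filterByExpr, which drops such genes, 29 rose and 2 fell of 80, where 25.8% of 15998 genes were called. In LI row >3 over centre cells 0 of 93 were called, where 0.0187% of all genes were, and with the replicate block 3 rose (2.59% of genes). The SI minus LI difference of this change was called in 0 of the 93, where 0% of genes were called; it was higher in the SI in 4 with DESeq2 (0.565% of genes), 7 with the block (2.32%), 9 of 92 without SI number 3 (3.27%) and 2 without centre or row >3 number 3 alone (0.875 and 0.380%). Of the members called over the same interval in the SI, Pigr rose as well, while Nlrp6, Nod1 and Tlr4 fell.

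Receptors and inflammasome genes gave 7 of the 25 that rose, of 20 tested. Naip2, a receptor for bacterial secretion system proteins, rose by 1.07 on the log2 scale (SE 0.18, adjusted p = 0.000481), from 849, 983 and 716 normalised counts to 2221, 1689 and 1428. Nlrp1b rose by 1.92 (adjusted p = 0.000538), and Zbp1, a sensor of Z-form nucleic acids, by 3.03 (adjusted p = 0.000188), from 99.7, 69.1 and 22.4 to 800.2, 493 and 265. Nucleic acid sensing gave 4 that rose, Zbp1 among them, and 2 that fell of 9: Mb21d1, which encodes cGAS, fell by 0.97 (adjusted p = 0.0283) and the helicase gene Dhx15 fell by 0.48 (adjusted p = 0.0436). Mb21d1 was called in 9 and Dhx15 in 7 of 14 alternatives. Dhx15 was not called in edgeR without SI number 3 (adjusted p = 0.0599). Irak3, an inhibitor of Myd88 signalling, rose by 2.24 (adjusted p = 0.000931), from 23.5, 69.1 and 163 to 445, 437 and 314, and was one of 3 that rose of 9 inhibitors. Card9, an adaptor known from myeloid cells, rose by 4.08 (SE 0.79, adjusted p = 0.00117), from 12.2, 6.45 and 0 to 192, 60.8 and 68.7, and 3 of 20 adaptors and kinases rose in all. In SI row >3 over border cells 1 of the 93 was called, Irak3 (1.70, adjusted p = 0.0406; called in 6 of 14 alternatives), where 1.61% of genes were called. That count was 0 with library size only, no filter or only the groups compared (0.808, 0.556 and 0% of genes) and without border number 1 or 2 or row >3 number 1 (0.563, 0.0188 and 0.0113%). It was 5 with filterByExpr (4.48%), 7 with DESeq2 (4.87%) and without border number 3 (5.71%), 2 and 8 without row >3 number 2 or 3 (2.15% both), 20 with the replicate block (9.78%) and 17 without SI number 3 (7.23%).

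**Figure D5:**
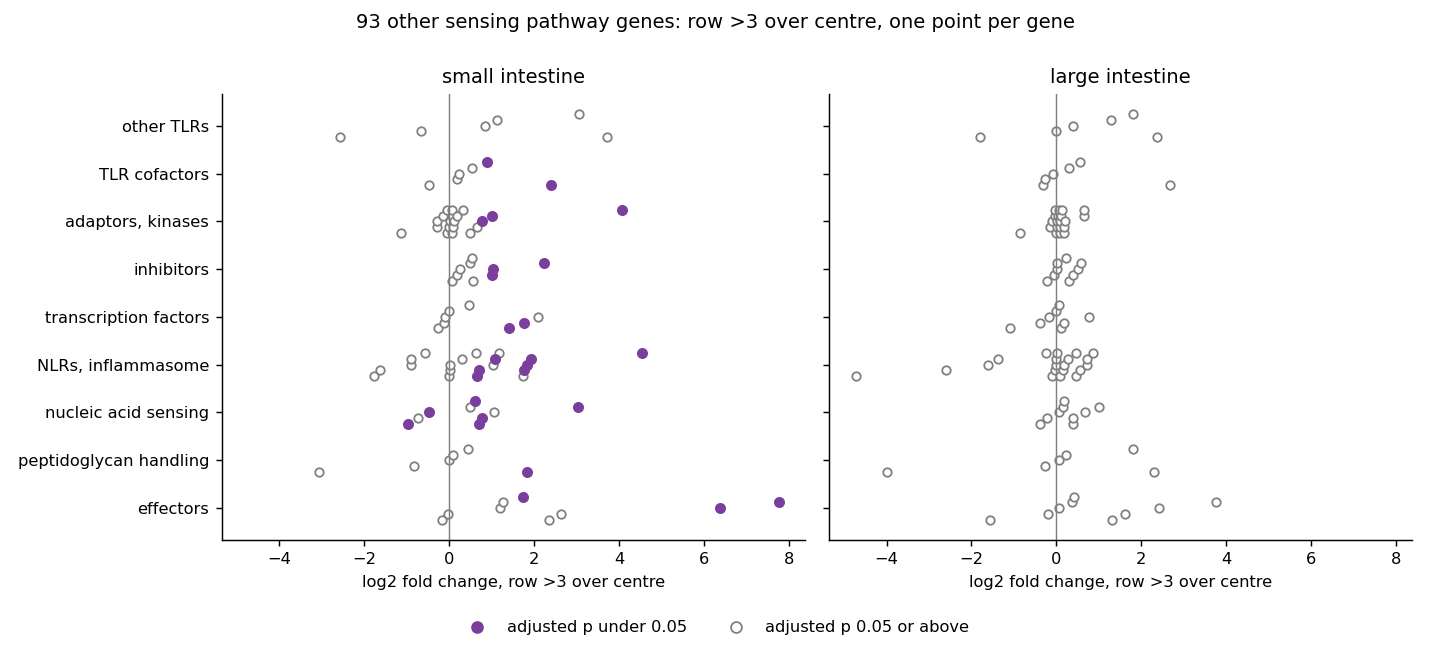
Log2 fold change of row >3 over centre (x axis) for the 93 pathway genes tested, one point per gene, by role (y axis), in the SI (left) and the LI (right); filled points have an adjusted p under 0.05. The 27 filled points are all in the SI, 25 of them to the right of 0, and the LI points have none; the difference between the sites was called in 0 of the 93.

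Between the sites, 4 of the 93 were higher and 4 lower in SI centre cells, where 1.19% of all genes were higher and 0.805% lower. In border cells 2 were higher and 2 lower (1.15 and 0.599% of genes), in row >3 cells 18 and 3 (2.76 and 1.32%), and over the sums 7 and 4 (2.12 and 0.823%). Without the 3 SI libraries of number 3 the counts were 12 and 11 in the centre, 11 and 6 in the border, 25 and 8 in row >3 and 19 and 10 over the sums, of 92 tested, where 10.9, 8.10, 12.2 and 11.8% of all genes were called, and the genes called with all libraries were called there too. With DESeq2, 10 were higher and 8 lower in the centre (4.60% of genes) and 12 and 3 in the border (4.54%). DESeq2 also gave 21 and 4 in row >3 (6.30%) and 18 and 6 over the sums (8.31%). The replicate block over all libraries gave 10 and 8 in the centre (5.61%) and 12 and 2 in the border (4.27%). It gave 19 and 4 in row >3 (6.89%) and 8 and 1 over the sums (3.05%). With filterByExpr the border had 8 and 2 of 80 (4.24%). The edgeR counts with all libraries, like the share of all genes called, also depended on single libraries. In the centre 8 genes were called in all, against 2 to 4 without any 1 of SI numbers 1 and 2 and the LI libraries (0.679 to 1.28% of genes), and 13 without SI number 3 (4.66%). In the border 4 became 1 or 2 without SI number 1 or 2 or LI number 2 or 3 (0.519 to 1.29%), and 7 without SI number 3 (3.24%). In row >3 the 21 became 8 without SI number 1 or LI number 2 (1.43 and 1.84%) and 9 without LI number 3 (2.06%). Over the sums the 11 became 5 without SI number 1 or 2 (0.965 and 1.81%), 0 without LI number 2 (0.496%), 2 without LI number 3 (0.675%) and 29 without SI number 3 (11.8%). Nfkbia, the NF-kB inhibitor that is itself induced by NF-kB, was lower in the SI at each level: it had 506, 676 and 671 normalised counts in SI centre against 1782, 1399 and 1240 in LI centre cells, and it was 2.47-, 2- and 2.07-fold lower in centre, border and row >3 cells (adjusted p = 0.00285, 0.0228 and 0.00741). Tnfaip3 (-1.30), Nfkb2 (-1.12) and Irf5 (-3.60) were also lower in SI centre cells, Tab2 was lower in the border (-0.76), and Tab2 (-0.64) and Cd14 (-1.07), the co-receptor of Tlr4, were lower in row >3. Ikbkb was higher in SI centre cells (0.68, adjusted p = 0.047).

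Higher in the SI were the lectin gene Reg3g at each level (5.97, 5.46 and 7.95, adjusted p = 0.0103, 0.0139 and 0.00105) and Reg3b in the centre (6.59, adjusted p = 0.0242). Slc15a1, a transporter that can carry muramyl dipeptide to Nod2, had 752, 118 and 419.9 normalised counts in SI row >3 cells and 0 in the 3 LI row >3 libraries (adjusted p = 6.1e-05), and in centre and border cells it was also called higher in the SI. Flagellin can also be detected in the cytosol by Naip5 and Naip6 with Nlrc4. In row >3 cells Naip6 was 2.65 higher in the SI (SE 0.38, adjusted p = 0.000955), with 21449, 11641 and 6199 normalised counts against 2469, 1812 and 1712, and Nlrc4 was 1.08 higher (adjusted p = 0.00464). In row >3 cells Naip6 and Nlrc4 were thus higher in the SI, where Tlr5 of numbers 1 and 2 was lower. In SI row >3 number 3 Tlr5 was at 318, above the LI row >3 libraries (238, 174 and 225). Naip6 (6199) and Nlrc4 (1113) of that library were also above the LI row >3 libraries, at most 2469 and 875. Neither gene was called between the sites in centre or border cells. Naip5 and Naip6 are near-identical copies, so reads may be split between them. Duoxa2, needed for the epithelial oxidase Duox2, was 3.10 higher (adjusted p = 0.00165).

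Over the summed levels, Slc15a1 (6.81), Irak2 (1.09, adjusted p = 0.0143), a kinase of the Myd88 complex, Reg3b (6.45), Nlrp9b (2.94) and Naip6 (1.97) had the smallest adjusted p of the 7 that were higher in the SI. The 4 that were lower were Nfkbia (-1.12), Irf5 (-1.79), Tab2 (-0.65) and Tlr6 (-2.75, adjusted p = 0.0482), a partner of Tlr2. Tlr6 was scarce, at 0 to 3.12 normalised counts in SI and 0 to 22.8 in LI libraries, and was called in 5 of 13 alternatives. Naip6 was called in 6 of 13. With the replicate block in edgeR, Irf5, Tab2 and Tlr6 were not called (adjusted p = 0.0688, 0.0552 and 0.0877), nor was Reg3b (0.0919). The calls of Nfkbia, Slc15a1, Irak2, Nlrp9b and Naip6 were kept with it.

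Each member with a mean of at least 10 reads per library was matched, over the 18 libraries, to the genes with the most similar log2 CPM among 14345 genes. The libraries share their site, level and number, so these coefficients describe similarity only. Nod1 was most like Notch1 (Pearson r = 0.988), Ephb3 (0.976) and Cdk6 (0.962), and Nlrp6 most like Vdr (0.946), Cap2 (0.944) and Mga (0.931). Pigr was most like Ctnnbip1 and Alkbh5 (both 0.931) and Pgd (0.919). Tlr5 was most like Dgkh (0.974), Mark1 (0.972) and Slc4a4 (0.968), and Nod2 most like RP23-95I4.2 (0.957), Hoxb5os (0.951) and Mtcl1 (0.950). Tlr4 followed Arl14ep (0.927), Bivm (0.926) and Usp14 (0.902), and Myd88 followed Twf1 (0.952), Bdh1 (0.951) and Arl4a (0.950). Tlr3 and Tlr2 had no partner above 0.884 (Leprot) and 0.844 (Lamp2). Among the members themselves, the 3 highest r were 0.913 for Nod1 with Nlrp6, 0.827 for Tlr5 with Nod2 and 0.759 for Tlr5 with Myd88, and the 2 lowest were -0.571 for Nod1 and -0.536 for Nlrp6 with Pigr.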

How the data were processed

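RNA of EPCAM+ cells sorted by GFP was sequenced as paired reads from libraries made with a low-input stranded kit. Per the study's methods the authors demultiplexed with bcl2fastq, trimmed with Skewer, aligned to mm10 with STAR and deposited raw counts per gene (unit: count). They also deposited those counts divided by 1 DESeq2 size factor per library, a normalised signal of 24814 genes. No source used here states the annotation release or whether strand was used in counting (both not given in the sources used here). Totals were 8312093 to 31940965 counts per library, and the limit of 3 counts given for 0 reads covers counting error only, whereas 95% intervals of log2 fold changes come from the edgeR fit.

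Positions and exon lengths were taken by gene identifier from GENCODE M21, which holds 42462 of the 43346 identifiers, and promoter sequences from RefSeq on GRCm38.p6. Raw counts were tested with edgeR 4.0.16 in R 4.3.3 (TMM factors, mean count above 0, robust glmQLFit, 1 fit of 6 groups, Benjamini-Hochberg adjustment over 26717 genes, threshold 0.05). For the summed comparison the counts of 3 levels were added per site and replicate number. The procedure was tested on simulated data. Alternatives were DESeq2 1.42.0, RLE factors, library size only, filterByExpr, no filter, a replicate block, only the groups compared, each library left out, and all 3 SI libraries of number 3 left out.

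Same-numbered libraries of a site deviated together from their group means (r between 0.321 and 0.742 over 18 pairs and 11518 genes). Numbers were therefore paired within a site in the ratios per number and in the replicate block, which was an alternative. The main fit had no block, so its calls between levels do not use the pairing. Across sites r was over 0.1 in all 3 border pairs (0.153, 0.207 and 0.139) but not in all centre or row >3 pairs. The source of the pairing is these correlations, since the labels give only a number.

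The members, the 97 pathway genes and the marker lists were chosen with earlier results of these data known. All members are named. Of the pathway genes, those called were named in order of their adjusted p, at most 5 per direction in a comparison; Naip5 and Duox2 are named only to describe these, and for each member up to 3 genes most like it are given. Likeness is the Pearson r of log2 CPM (TMM, prior count 2) over 18 libraries. Figures were drawn with matplotlib 3.10.9.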

Additional observations from a re-analysis of the deposited data

How the results depend on the processing

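Numbers of members called are given for results that moved. The share of all genes called under the same setting follows in brackets. SI border over centre gave 0 members (0.0112%), and 1 with DESeq2 (0.782%) and with the replicate block within site (2.32%). SI row >3 over border gave 1 member (1.61%), 0 with library size only (0.808%), no filter (0.556%) and only the groups compared (0%), 2 with filterByExpr (4.48%) and DESeq2 (4.87%), and 3 with the replicate block (9.78%) and without the 3 SI libraries of number 3 (7.23%); leaving out 1 library gave 0 to 3 (0.0113 to 5.71%). LI row >3 over centre gave 0 (0.0187%), and 1 with DESeq2 (0.307%), 2 with only the groups compared (1.03%) and 3 with the replicate block (2.59%). SI over LI gave 0 in the centre (1.99%), and 1 with DESeq2 (4.60%) and with the block over all libraries (5.61%) and 3 without SI number 3 (10.9%). In the border it gave 1 (1.75%), and 0 with only the groups compared (1.16%), 3 without SI number 3 (8.10%), and 0 to 1 leaving out 1 library (0.519 to 3.24%). In row >3 it gave 1 (4.09%), and 3 without SI number 3 (12.2%) and 0 to 2 leaving out 1 library (1.43 to 6.34%). Over the summed levels it gave 0 (2.95%), and 3 with DESeq2 (8.31%), 4 without SI number 3 (11.8%) and 0 to 4 leaving out 1 library (0.496 to 11.8%). Of the recomputed member counts, 144 stayed within 1.5 times the main one and the others are those above. Members' log2 fold changes were tallied for pairs of member and comparison called under at least 1 setting, and for some further chosen pairs. Changes of direction in the other pairs were not counted. Of the tallied values, 508 kept direction and call, 40 gained a call, 15 lost one and 2 reversed. The 2 were Tlr5 in SI row >3 over centre (-0.58 without SI row >3 number 3, and up to 2.87 without SI centre number 3) and the SI minus LI difference of Nlrp6 (from -0.19 to 0.00 leaving out 1 library). Beside the calls given in the text, the replicate block changed that of Myd88 in SI over LI centre cells (adjusted p = 0.0222 with the block over all libraries), and no other. The cause of these shifts was not tested. The median of all genes, many of them with few reads, moved by less than 0.1 on the log2 scale under each scaling. Members called in SI row >3 over centre moved more. With library size only, Nlrp6, Nod1, Tlr4 and Pigr were at -1.08, -1.69, -1.85 and 0.40, against -0.86, -1.49, -1.68 and 0.60 in the main fit. Tlr4, with 3 to 115 reads per library, and Tlr9, with 2 reads in all, are limited by depth.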

Other observations

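Nlrp9b and Irf7 were picked after their values were seen. Nlrp9b, an epithelial receptor known from the response to rotavirus, had 13.8, 12.9 and 16.8 normalised counts in SI centre and 583, 118 and 308 in SI row >3 cells (log2 fold change 4.54, adjusted p = 0.0031 in edgeR), called under all 14 alternatives. In LI row >3 cells it was at 3.64, 16.7 and 17, so SI and LI row >3 libraries did not overlap (4.67, adjusted p = 0.00743). Irf7, a transcription factor of the interferon response, rose by 1.77 from SI centre to SI row >3 cells (adjusted p = 0.00273 in edgeR), also under all 14 alternatives.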
